A study of Mus musculus with 24 samples.

Results

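Sox genes encode transcription factors that bind DNA through a high mobility group box. The 10 members described here were the rows of the expression table whose symbol was Sox2, Sox3, Sox21, Sox4, Sox11, Sox12, Sox5, Sox6, Sox8 or Sox9, the Sox genes best known from the neural lineage, out of 21553 genes with counts. All 10 passed the filter on low counts that left 16627 genes for testing. Sox proteins fall into subgroups by the sequence of the box. The SoxB1 factors Sox2 and Sox3 hold neural cells in the progenitor state, the SoxB2 factor Sox21 represses genes that SoxB1 factors activate, and the SoxC factors Sox4, Sox11 and Sox12 act as progenitors leave the cycle and become neurons. The SoxD factors Sox5 and Sox6 have no activation domain of their own and work with other Sox factors, and the SoxE factors Sox8 and Sox9 are known from glia, neural crest and cartilage.

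The samples were cultured mouse cells taken along an in vitro course from embryonic stem cells (ESCs, kept in 2i medium with LIF) through neural progenitor cells (NPCs, day 7) and PSA-NCAM+ cells (day 10) to neurons (replated on day 7, then another 14 days in culture). WT cells (genotype wt/wt) were set against slow/slow cells (genotype Polr2a[R749H/R749H]), in which both alleles of the gene for the largest subunit of RNA polymerase II carried the knock-in substitution R749H that slows elongation, so that the question for each gene was whether its level differed when every cell had only the slow polymerase. The 8 groups, 1 for each genotype at each stage, had 3 poly(A)+ RNA-seq libraries each, and the library totals lay between 32974432 and 104466886 counts. The study's methods give independent differentiation experiments for ESCs, NPCs and neurons, and do not name PSA-NCAM+ cells there. For differentiation, WT cells had been plated at 10000 and slow/slow cells at 30000 per cm2, so density and genotype cannot be told apart, and the sources used here do not say how many targeted clones the slow/slow cells represent.

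Libraries of a group correlated at r of 0.9939 or more on log2 CPM across genes, with one exception. CPM is a gene's read count scaled to the size of its library, and a log2 change of 1 below is a doubling. The PSA-NCAM+ libraries numbered 1 stood apart from numbers 2 and 3, at r of 0.9779 and 0.9781 in WT cells and 0.9649 and 0.9599 in slow/slow cells. Values without them are given for part of the results that they move. The counts of marker and other listed genes at that stage use all libraries. The stage names were checked against marker genes summed over each list. In WT ESCs the 8 pluripotency markers summed to between 6220 and 6700 CPM. The sum was still 2740 to 2780 CPM in WT NPCs, against 1710 to 1960 CPM in slow/slow NPCs, and the 6 neural progenitor markers reached only 129 to 137 CPM in WT NPCs and 231 to 292 CPM in slow/slow NPCs. In neurons the 9 neuronal markers summed to 4370 to 4770 CPM (WT) and 3220 to 3420 CPM (slow/slow), while the progenitor markers summed to 1090 to 1280 and 1470 to 1680 CPM. The 3 genes behind the PSA-NCAM epitope, Ncam1, St8sia2 and St8sia4, summed to 13.0 to 14.4 CPM in WT NPCs, 26.7 to 31.1 CPM in WT PSA-NCAM+ cells and 715 to 745 CPM in WT neurons. WT PSA-NCAM+ cells had 81.6 to 106 CPM of the neuronal markers, against 99 to 107 CPM in WT NPCs, and still 1670 to 2240 CPM of the pluripotency markers. Between genotypes, all 9 neuronal and all 6 progenitor markers were higher in slow/slow PSA-NCAM+ cells (237 to 559 CPM and 453 to 588 against 167 to 203 CPM), and 6 of the 8 pluripotency markers were lower there (868 to 932 CPM) and in slow/slow NPCs. Without the WT library numbered 1 the neuronal marker Syn1 no longer counted as higher, at a log2 difference of 0.22 instead of 0.41. Fibroblast and smooth muscle markers summed to 979 to 2010 CPM in slow/slow and 809 to 1110 CPM in WT PSA-NCAM+ cells (3 of 7 higher, 2 lower). The medians were close, at 1090 and 1040 CPM, and 1 slow/slow library gave the 2010 CPM. Endoderm markers summed to 835 to 1110 CPM in slow/slow and 428 to 515 CPM in WT NPCs (3 of 8 higher, none lower), and the median of their log2 differences was 0.19. By the test described below, 29.3% of all tested genes were higher and 27.4% lower in slow/slow NPCs. In slow/slow PSA-NCAM+ cells 28.6% were higher and 28.1% lower. In such bulk samples, fewer cells of a type and less RNA per cell cannot be told apart, and the part of cell composition in the results below was not tested.

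Sox genes were mostly higher in slow/slow cells from the NPC stage on. In this comparison a gene was called where edgeR's quasi-likelihood test gave a Benjamini-Hochberg adjusted p (FDR) under 0.05. In NPCs 7 of the 10 members were higher and 1 was lower, beside 29.3% and 27.4% of all tested genes. In PSA-NCAM+ cells 8 were higher and 1 lower, beside 28.6% and 28.1% of all genes, and in neurons 7 were higher and 1 lower, beside 23.4% and 28.4%. With upper-quartile scaling the split of all genes in neurons turned to 30.4% higher and 21.0% lower, while 8 members were still called. In ESCs the split was 3 higher and 2 lower, with 18.5% and 21.9% of all genes called in those directions. The median log2 difference of the members was -0.31 at the ESC stage and 0.90 at the NPC stage, then 1.07 for PSA-NCAM+ cells and 0.65 for neurons, where the median of all genes lay between -0.06 and 0.01. Of the members, only Sox3 and Sox11 were called in one direction, higher in slow/slow cells, at all 4 stages. Median changes of the chromosomes that carry the members lay between -0.14 and 0.15 on the log2 scale.

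**Figure D1:**
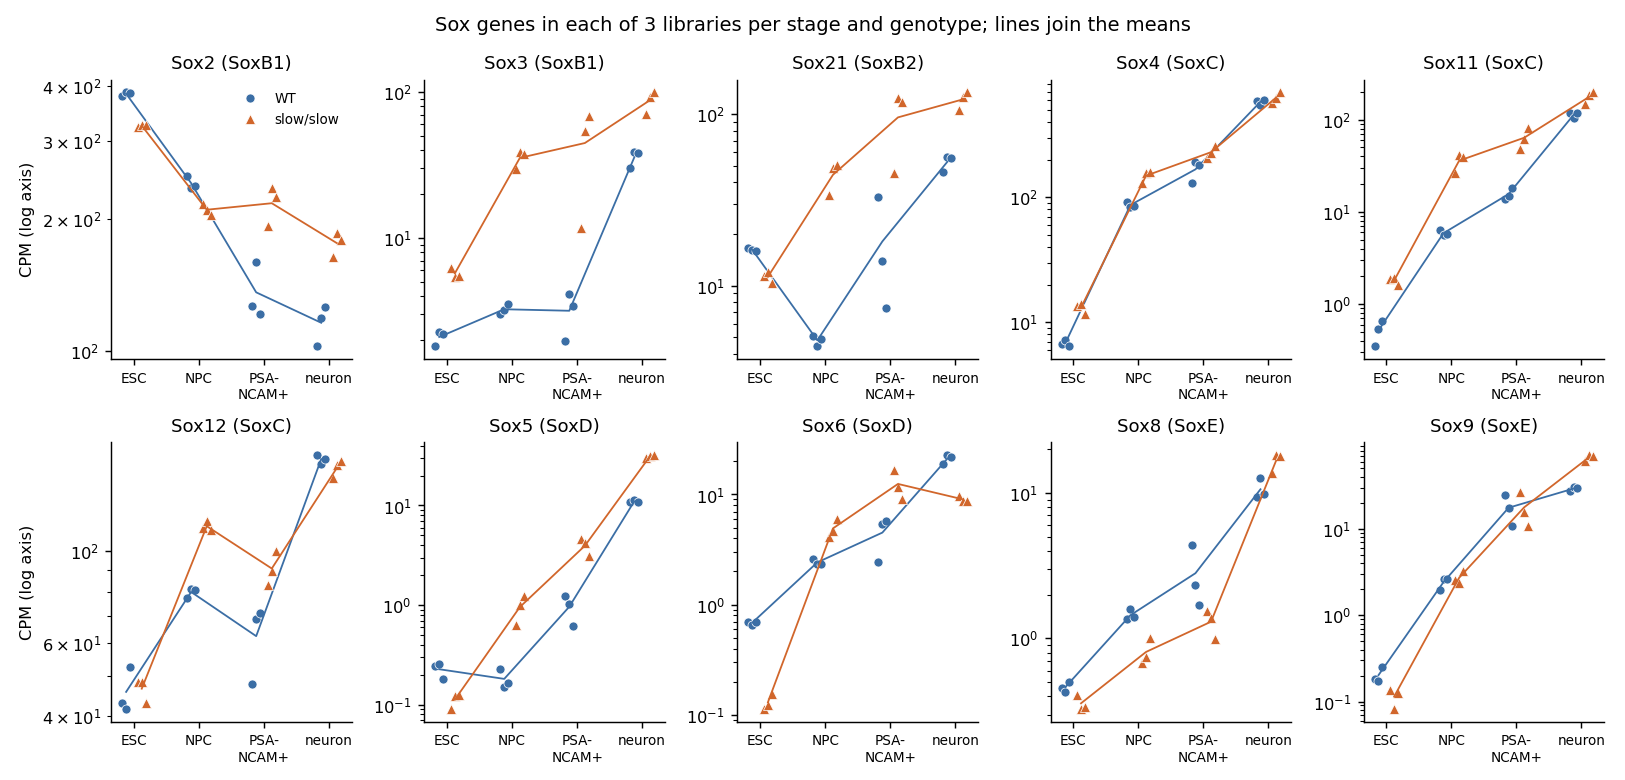
Each panel plots 1 Sox gene, with its CPM (on a log axis) in each of the 24 libraries against stage, circles for WT and triangles for slow/slow, and lines joining the means of 3 libraries. Sox2 falls from 385 to 116 CPM in WT cells, whereas the SoxC, SoxD and SoxE genes climb by over an order of magnitude, except Sox12.

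Sox2 (chr3:34650405-34652461, with this and the following gene positions from GENCODE M21 on GRCm38) was the most abundant member per length in pluripotent cells, where it maintains self-renewal together with Oct4. It was measured at 379.9, 387 and 387 CPM in the 3 WT ESC libraries and at 323, 327 and 326 CPM in slow/slow ESCs. The small decrease, 1.18-fold (log2 difference of -0.24, SE 0.09, FDR = 0.0449), was lost when any of the 6 libraries was left out. In NPCs Sox2 stood at 250.1, 235.0 and 238 CPM in WT cells against 216, 209 and 204 CPM in slow/slow cells, and the log2 difference of -0.20 missed the threshold (FDR = 0.0728). It was called lower with DESeq2's size factors (FDR = 0.0282), upper-quartile scaling (FDR = 0.0315), only the NPC libraries (FDR = 0.000872) and the DESeq2 test (FDR = 0.02). The order of the genotypes then turned. PSA-NCAM+ cells had 127, 160 and 122 CPM in WT cells against 192, 235 and 224 CPM in slow/slow cells, 1.60-fold higher (FDR = 5.12e-06), and neurons had 103, 119 and 126 CPM in WT cells against 164, 186 and 179 CPM in slow/slow cells, 1.52-fold higher (FDR = 2.19e-05). At both late stages every slow/slow library lay above every WT library. The change of the genotype effect was itself past the threshold, since the effect in PSA-NCAM+ cells exceeded that in NPCs by 0.87 on the log2 scale (SE 0.13, FDR = 0.000246) and that in neurons exceeded it by 0.80 (SE 0.13, FDR = 4.03e-05). Put in terms of the course, WT cells lost Sox2 from NPCs to PSA-NCAM+ cells (log2 change -0.83) while the slow/slow value was 0.05 (FDR = 0.695).

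Sox3 (chrX:60891366-60893430), the X-linked SoxB1 gene of neural progenitors, had the largest genotype difference of the members in NPCs and in PSA-NCAM+ cells. WT ESCs had 1.81, 2.27 and 2.21 CPM and slow/slow ESCs 6.22, 5.42 and 5.51 CPM, 2.75-fold higher (FDR = 0.00813). WT NPCs remained at 3.02, 3.20 and 3.52 CPM, whereas slow/slow NPCs reached 29.9, 38.9 and 37.4 CPM, a 10.9-fold difference (log2 difference of 3.44, SE 0.41, FDR = 9.15e-07). The slow/slow NPC libraries overlapped those of WT neurons, at 30.02, 39.0 and 38.1 CPM. In PSA-NCAM+ cells WT libraries gave 1.97, 4.11 and 3.44 CPM and slow/slow libraries 11.8, 54.3 and 68.2 CPM, 14.3-fold higher (FDR = 2.31e-07). The slow/slow library numbered 1 was far below the other pair but above all WT libraries, and the FDR reached 0.0125 over the alternative settings. Slow/slow neurons had 71.1, 93.2 and 99.4 CPM, 2.46-fold more than WT neurons (FDR = 0.00572). The difference was smaller in neurons than in NPCs by 2.14 on the log2 scale (SE 0.53, FDR = 0.00197).

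Sox21 (chr14:118233232-118237030) opposes SoxB1 factors at shared targets and, in mouse ESCs and progenitors, its level is linked to the exit from self-renewal. In ESCs its values were 16.5, 16.0 and 16.0 CPM in WT cells against 11.4, 11.97 and 10.4 CPM in slow/slow cells, and the log2 difference of -0.52 missed the threshold (FDR = 0.282) and passed it in 1 of 12 alternatives, with only the 6 ESC libraries in the fit (-0.50, FDR = 9.87e-05). The libraries did not overlap. WT cells then dropped to 5.08, 4.42 and 4.87 CPM as NPCs, a log2 change of -1.75 (FDR = 0.000489). Slow/slow cells went the other way, to 33.8, 48.2 and 50.6 CPM, a log2 change of 1.97 (FDR = 0.000136). These changes differed by 3.73 (SE 0.54, FDR = 4.99e-05), and slow/slow NPCs held 9.22-fold more Sox21 than WT NPCs (FDR = 1.55e-06). In PSA-NCAM+ cells WT values were scattered at 32.9, 14.0 and 7.43 CPM against 45.3, 124 and 117 CPM in slow/slow cells, 5.26-fold higher (log2 difference of 2.40, FDR = 2.12e-05). Here the libraries numbered 1 carried the lowest slow/slow and the highest WT value. Without the WT library numbered 1 the log2 difference was 3.17, and without both libraries numbered 1 it was 3.51. Neurons had 46.2, 56.2 and 55.7 CPM in WT cells against 105, 126 and 134 CPM in slow/slow cells, 2.31-fold higher (FDR = 0.00827).

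The SoxC genes rose towards neurons in both genotypes and were all higher in slow/slow NPCs and PSA-NCAM+ cells. The 250 bases upstream of the RefSeq starts of the SoxC genes are given as a description (assembly GRCm38.p6, minus strand of each chromosome, printed 5′ to 3′). CCAAT on either strand (CCAAT or its reverse complement ATTGG) is in capitals. The Sox4 window lies on chr13:28953700-28953949, Sox11 on chr12:27342719-27342968 and Sox12 on chr2:152398047-152398296.
Sox4: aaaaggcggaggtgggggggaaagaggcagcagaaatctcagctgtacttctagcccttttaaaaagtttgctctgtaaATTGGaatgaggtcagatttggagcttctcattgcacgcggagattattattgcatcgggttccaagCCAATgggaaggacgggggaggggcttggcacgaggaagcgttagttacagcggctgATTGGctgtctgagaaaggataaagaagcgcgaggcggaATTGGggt
Sox11: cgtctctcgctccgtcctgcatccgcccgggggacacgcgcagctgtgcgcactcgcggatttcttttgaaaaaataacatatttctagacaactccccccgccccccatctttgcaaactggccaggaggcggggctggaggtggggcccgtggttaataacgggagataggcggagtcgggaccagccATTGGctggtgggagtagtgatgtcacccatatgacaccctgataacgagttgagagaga
Sox12: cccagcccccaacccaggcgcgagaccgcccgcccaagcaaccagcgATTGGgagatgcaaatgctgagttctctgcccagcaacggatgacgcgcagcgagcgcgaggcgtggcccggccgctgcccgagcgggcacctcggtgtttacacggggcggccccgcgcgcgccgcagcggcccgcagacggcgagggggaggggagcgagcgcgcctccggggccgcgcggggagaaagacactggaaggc
The Sox4 window held 4 such matches and the Sox11 and Sox12 windows 1 each. Of 32841 windows of the same length over all annotated starts, 33.9% held at least 1, so a match was common. Among the other members, the Sox2 window and 2 of the 6 Sox6 windows held CCAAT, and those of Sox21, Sox5 and Sox8 did not. A match is a description of letters and not of a bound factor. The G+C share rose from 50.8% for Sox4 through 58.0% for Sox11 to 74.4% for Sox12. The octamer ATGCAAAT, the motif of POU factors, was found on either strand in 1.6% of all windows and among the members only in the Sox12 window. The Sox core ACAAAG occurred on either strand in 16.5% of all windows, in the Sox2 window and in 5 of the 6 Sox6 windows, and in no other member window. Windows were held for 8 of the members.

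Sox4 (chr13:28948919-28953713), which supports the survival and maturation of young neurons, was measured at 6.78, 7.29 and 6.43 CPM in WT ESCs and 13.5, 14.1 and 11.8 CPM in slow/slow ESCs, 1.93-fold higher (log2 difference of 0.95, SE 0.13, FDR = 8.3e-06). It stood at 91.8, 83.3 and 85.3 CPM in WT NPCs and 131, 157 and 159 CPM in slow/slow NPCs, 1.72-fold higher (FDR = 1.99e-05). PSA-NCAM+ cells had 130.3, 191 and 181 CPM in WT cells against 207, 227 and 256 CPM in slow/slow cells, 1.37-fold higher (FDR = 0.0029). These 3 stages had no overlap between genotypes. In neurons the values, 593, 552 and 598 CPM in WT cells against 565, 626 and 689.9 CPM in slow/slow cells, overlapped (log2 difference of 0.11, SE 0.12, FDR = 0.459). With only the libraries of 1 stage in the fit, the Sox4 call in PSA-NCAM+ cells was lost (FDR = 0.128) and a call in neurons was gained (log2 difference of 0.18, FDR = 0.032).

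Sox11 (chr12:27334264-27342574), a driver of neuronal gene expression after cell cycle exit, had the same direction with larger steps. Its levels were 0.349, 0.545 and 0.665 CPM in WT ESCs (19 to 37 counts) and 1.88, 1.92 and 1.61 CPM in slow/slow ESCs, 3.55-fold higher (FDR = 2.25e-05). NPCs had 6.34, 5.58 and 5.74 CPM in WT cells against 26.7, 41.8 and 39.3 CPM in slow/slow cells, 6.09-fold higher (log2 difference of 2.61, SE 0.19, FDR = 1.9e-09). PSA-NCAM+ cells had 13.9, 14.9 and 18.0 CPM in WT cells against 48.7, 61.8 and 80.6 CPM in slow/slow cells, 4.09-fold higher (FDR = 2.32e-08). The gap narrowed in neurons, where 118, 103 and 117 CPM in WT stood against 149, 184 and 197 CPM in slow/slow cells, 1.57-fold higher (FDR = 0.00419). Sox11 was the one member whose 8 group means could be ordered with no overlap of libraries between neighbours, from WT ESCs (0.520 CPM) over slow/slow ESCs, WT NPCs, WT PSA-NCAM+ cells, slow/slow NPCs, slow/slow PSA-NCAM+ cells and WT neurons to slow/slow neurons (177 CPM). In that order slow/slow NPCs stood above the later WT PSA-NCAM+ cells.

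Sox12 (chr2:152393611-152398063), the more broadly expressed SoxC gene, varied least of the 3. ESC libraries overlapped, at 43.1, 41.6 and 52.7 CPM in WT cells against 48.4, 48.5 and 43.0 CPM in slow/slow cells (log2 difference of 0.03, FDR = 0.892). Slow/slow NPCs, with 114, 119 and 113 CPM, exceeded WT NPCs, with 77.2, 81.4 and 80.9 CPM, by 1.44-fold (FDR = 0.000595). Slow/slow PSA-NCAM+ cells, with 82.9, 89.8 and 100.0 CPM, exceeded WT cells, with 47.8, 68.5 and 70.9 CPM, by 1.46-fold (FDR = 0.000438), a call that was lost with only the libraries of that stage in the fit (FDR = 0.0846). Neurons had 171, 163 and 168 CPM in WT cells against 150.2, 162 and 165 CPM in slow/slow cells (log2 difference of -0.07, FDR = 0.619, and 0.07 with upper-quartile scaling). All 3 SoxC genes had a genotype effect in neurons that was smaller than in NPCs, by 0.67 for Sox4 (SE 0.17, FDR = 0.0023), 1.96 for Sox11 (SE 0.26, FDR = 2.76e-06) and 0.60 for Sox12 (SE 0.16, FDR = 0.00361) on the log2 scale.

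**Figure D2:**
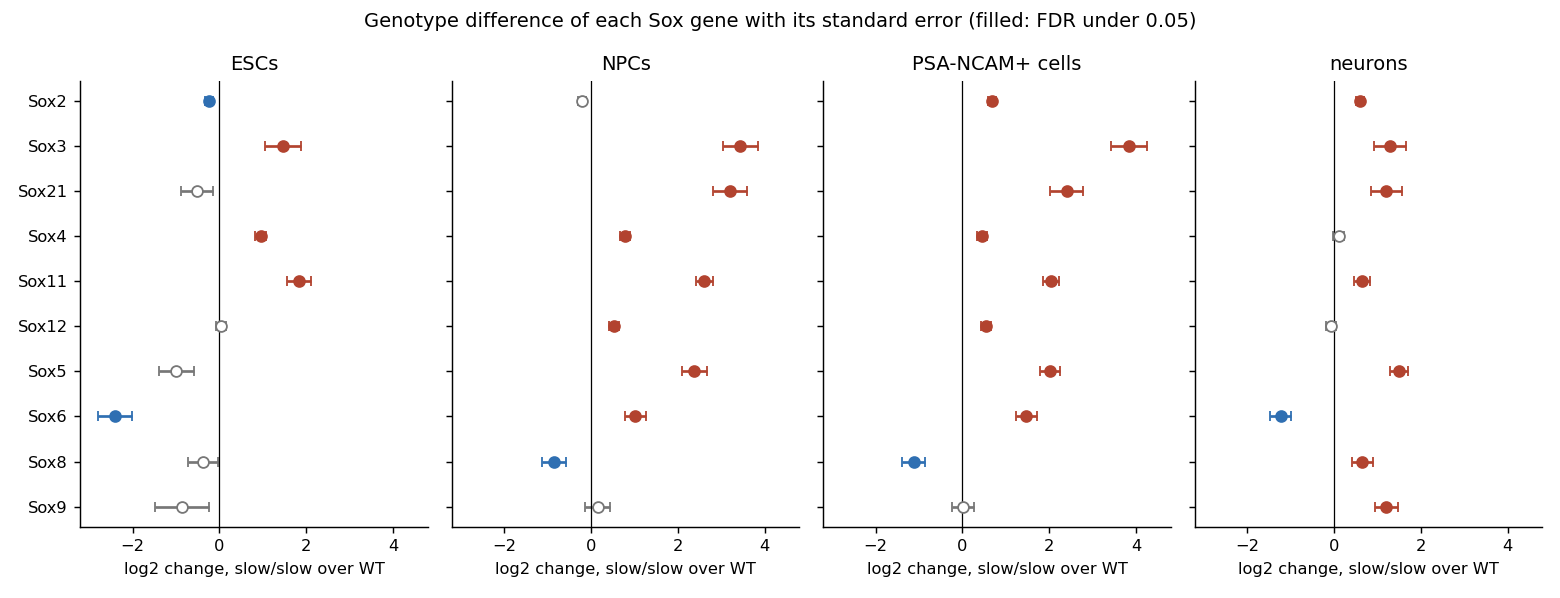
Points give the log2 change of slow/slow over WT cells for each Sox gene (rows) at each stage (panels), bars its standard error from the edgeR fit, and filled points an FDR under 0.05, red for higher and blue for lower in slow/slow cells. From 5 filled points in ESCs the number rises to 8, 9 and 8 at the later stages, and Sox3 reaches 3.84 in PSA-NCAM+ cells.

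The SoxD genes were the only long members, spanning 953.55 kb (Sox5, chr6:143828425-144781977) and 567.92 kb (Sox6, chr7:115470872-116038796) of GRCm38, where none of the other 8 spanned more than 8.31 kb (Sox11). Sox5, which times the production of projection neuron types in the cortex, was barely present in ESCs, with 9 to 16 counts in WT and 4 to 6 in slow/slow libraries (log2 difference of -0.99, FDR = 0.0531, and 0.0478 with upper-quartile scaling). NPC libraries had 0.229, 0.151 and 0.165 CPM in WT cells (10 or 11 counts) against 0.634, 1.00 and 1.23 CPM in slow/slow cells (42 to 50 counts), 5.20-fold higher (FDR = 1.2e-06). PSA-NCAM+ cells had 1.24, 1.03 and 0.619 CPM in WT cells against 4.57, 4.18 and 3.08 CPM in slow/slow cells, 4.05-fold higher (FDR = 3.38e-07). Neurons had 10.8, 11.3 and 10.9 CPM in WT cells against 29.8, 31.6 and 32.0 CPM in slow/slow cells, 2.83-fold higher (log2 difference of 1.50, SE 0.21, FDR = 5.55e-06). The genotypes did not overlap at any stage, the uncalled ESC stage included. The rise of Sox5 from NPCs to neurons, 5.93 in WT and 5.05 in slow/slow cells on the log2 scale, was the largest of any member over that interval.

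Sox6, which acts with Sox5 in cartilage and is known from cortical interneurons, changed direction between stages. It was lower in slow/slow ESCs, with 5 or 6 counts per library (0.113, 0.123 and 0.155 CPM) against 0.699, 0.660 and 0.701 CPM in WT (23 to 46 counts), 5.31-fold (FDR = 5.67e-05). It was higher in slow/slow NPCs, at 4.09, 4.63 and 6.04 CPM against 2.58, 2.34 and 2.34 CPM, 2.03-fold (FDR = 0.00156). It was also higher in slow/slow PSA-NCAM+ cells, at 16.7, 11.6 and 9.08 CPM against 2.45, 5.37 and 5.70 CPM, 2.77-fold (log2 difference of 1.47, FDR = 3.4e-05), where the libraries numbered 1 were the extremes and the log2 difference without both was 0.90. In neurons Sox6 was 2.34-fold lower in slow/slow cells, at 9.65, 8.74 and 8.69 CPM against 19.0, 22.7 and 21.7 CPM (log2 difference of -1.23, SE 0.24, FDR = 0.000215). None of these 4 comparisons had overlapping libraries. Both turns passed the test of the difference itself, with 3.43 from ESCs to NPCs (SE 0.46, FDR = 2.28e-05) and -2.25 from NPCs to neurons (SE 0.34, FDR = 1.59e-05). In neurons Sox5 was thus higher and Sox6 lower in slow/slow cells.

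Their exons could hardly be compared at these levels. The deposited splicing table listed 11 exons of Sox5 and 7 of Sox6, and the quality filters on reads and on balance between junctions, required in all 6 samples of a stage, left 2 Sox5 exons in neurons and none at the other stages. The 87-nt exon at chr6:143989789-143989875 (mm9, as deposited) had a percent spliced in (PSI) of 100% in the 3 WT libraries, from 28 to 33 corrected reads, and of 100%, 96.2% and 100% in slow/slow libraries. The 146-nt exon at chr6:143809904-143810049 (mm9) had 100% in each WT library and 91.7%, 98.2% and 100% in slow/slow libraries. The differences of posterior means were 0.45 and -1.30 PSI points, and 0 of the 2 exons were called by the posterior rule (over 10 points at a probability over 0.95) or by limma on the logit scale. Among the 24305 exons that passed in neurons, 1.95% were called higher and 1.56% lower in slow/slow cells.

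The SoxE gene Sox8 (chr17:25565892-25570686), a marker of oligodendrocyte and neural crest derivatives, was the one member called lower in slow/slow cells at the middle stages. ESC values of 0.456, 0.430 and 0.503 CPM in WT cells against 0.407, 0.327 and 0.341 CPM in slow/slow cells gave a log2 difference of -0.37 (FDR = 0.41). NPCs had 1.35, 1.59 and 1.40 CPM in WT cells against 0.673, 0.740 and 1.01 CPM in slow/slow cells, 1.81-fold lower (FDR = 0.0136). PSA-NCAM+ cells had 4.41, 2.32 and 1.69 CPM in WT cells against 1.53, 1.39 and 0.994 CPM in slow/slow cells, 2.18-fold lower (FDR = 0.00109). In neurons the order was reversed, with 9.41, 12.6 and 9.77 CPM in WT cells against 13.7, 18.2 and 18.0 CPM in slow/slow cells, 1.57-fold higher (FDR = 0.0309). The libraries did not overlap at any stage, the uncalled ESC stage included, and the change of the genotype effect from NPCs to neurons was 1.51 (SE 0.37, FDR = 0.00192). The neuron call was lost in 4 of the 6 fits that left out 1 library (FDR up to 0.112), the NPC call in 1 of 6 (FDR = 0.0709), and the call in PSA-NCAM+ cells was lost with only that stage in the fit (FDR = 0.0944). The log2 difference in PSA-NCAM+ cells lay between -1.35 and -0.63 over the alternatives.

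Sox9 (chr11:112782224-112787760), which specifies radial glia and astrocytes and commits cells to cartilage, passed the threshold between the genotypes only at the neuron stage. ESC libraries held 4 to 14 counts (log2 difference of -0.86, SE 0.63, FDR = 0.293). NPCs had 1.98, 2.63 and 2.64 CPM in WT cells against 2.52, 2.36 and 3.23 CPM in slow/slow cells (log2 difference of 0.15, SE 0.28, FDR = 0.665). PSA-NCAM+ cells had 24.3, 17.5 and 10.7 CPM in WT cells against 26.7, 15.6 and 10.8 CPM in slow/slow cells (log2 difference of 0.01, SE 0.26, FDR = 0.978), and libraries with the same number were close to each other. Neurons had 27.2, 30.8 and 29.5 CPM in WT cells against 60.9, 71.2 and 70.1 CPM in slow/slow cells, 2.31-fold higher (log2 difference of 1.21, SE 0.26, FDR = 0.000592), with no overlap. The test of neurons against NPCs gave a difference of 1.05 (SE 0.38, FDR = 0.0248). Across the 8 groups Sox9 had the widest span of any member, 592-fold from slow/slow ESCs to slow/slow neurons, followed by Sox11 at 340-fold, while Sox2 spanned 3.32-fold and Sox12 3.65-fold.

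Along differentiation the median change of the members was larger in slow/slow than in WT cells from ESCs to NPCs and smaller from NPCs to neurons. From ESCs to NPCs 6 members rose and 2 fell in WT cells, beside 34.0% and 31.6% of all genes, and 9 rose and 1 fell in slow/slow cells, beside 33.9% and 28.4%. It was 1.22 in WT and 2.84 in slow/slow cells on the log2 scale. Sox6 rose by 1.81 in WT and 5.24 in slow/slow cells, and Sox5 rose by 3.04 in slow/slow cells where its WT value was -0.33 (FDR = 0.408). From NPCs to PSA-NCAM+ cells 7 rose and 2 fell in WT cells, beside 21.8% and 19.5% of all genes, and 6 rose and 1 fell in slow/slow cells, beside 22.5% and 19.8%. From NPCs to neurons 9 rose and Sox2 fell in both genotypes, beside 41.4% and 38.9% of genes in WT and 38.4% and 36.6% in slow/slow cells, with a median of 3.29 in WT and 1.77 in slow/slow cells. The genotype effect differed between NPCs and ESCs for 5 members (24.6% of all genes), between PSA-NCAM+ cells and NPCs for 1 (14.6%) and between neurons and NPCs for all 10 (55.1%), where it was smaller or negative in neurons for 7 and larger for Sox2, Sox8 and Sox9. These comparisons share libraries with each other and with the genotype comparisons.

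**Figure D3:**
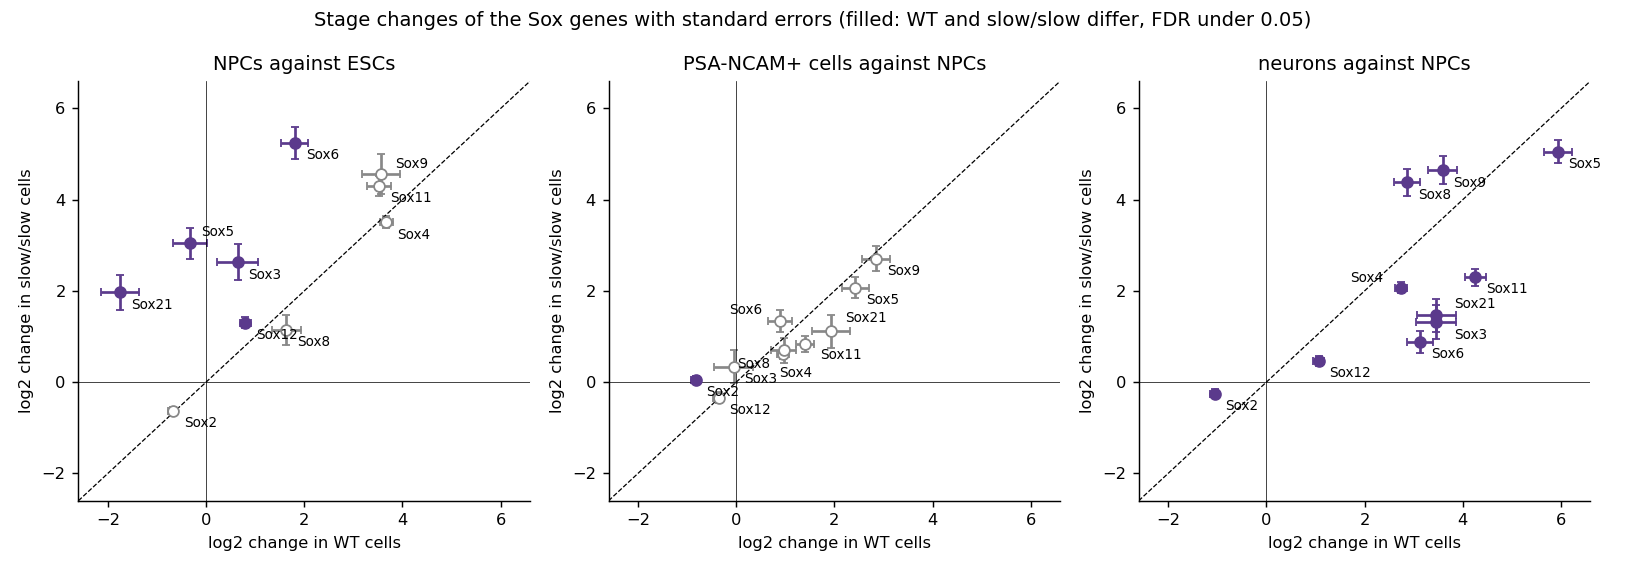
Each point is 1 Sox gene, placed by its log2 change between 2 stages in WT cells (x axis) and in slow/slow cells (y axis) with standard errors, and filled where the 2 changes differ at an FDR under 0.05. Points lie on or above the dashed line of equal change for NPCs against ESCs, except Sox4 and Sox8, and 7 of 10 lie below it for neurons against NPCs.

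Levels of different genes can be set side by side only per length, for which the authors' group means in RPKM (reads scaled by transcript length and library size) were taken, without an error since no replicate values were used for them. In WT ESCs Sox2 had 149 RPKM and made up 89.6% of the summed RPKM of the 10 members. Its share fell to 68.4% in WT NPCs, 43.6% in WT PSA-NCAM+ cells and 14.9% in WT neurons, and to 44.0%, 36.0% and 16.4% in slow/slow cells. The leading member of neurons was Sox4, at 133 RPKM in WT and 157 RPKM in slow/slow cells, followed by Sox11 at 57.6 and 99.2 RPKM. Sox3 made up 1.09% of the sum in WT NPCs and 8.81% in slow/slow NPCs. Sox5, Sox6 and Sox8 each stayed under 2% of the sum in all groups, with at most 4.77, 2.58 and 6.17 RPKM. The sum itself was 167 RPKM in WT and 143 RPKM in slow/slow ESCs, 154 and 202 RPKM in NPCs, 139 and 249 RPKM at the PSA-NCAM+ stage, and 327 and 494 RPKM in neurons.

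**Figure D4:**
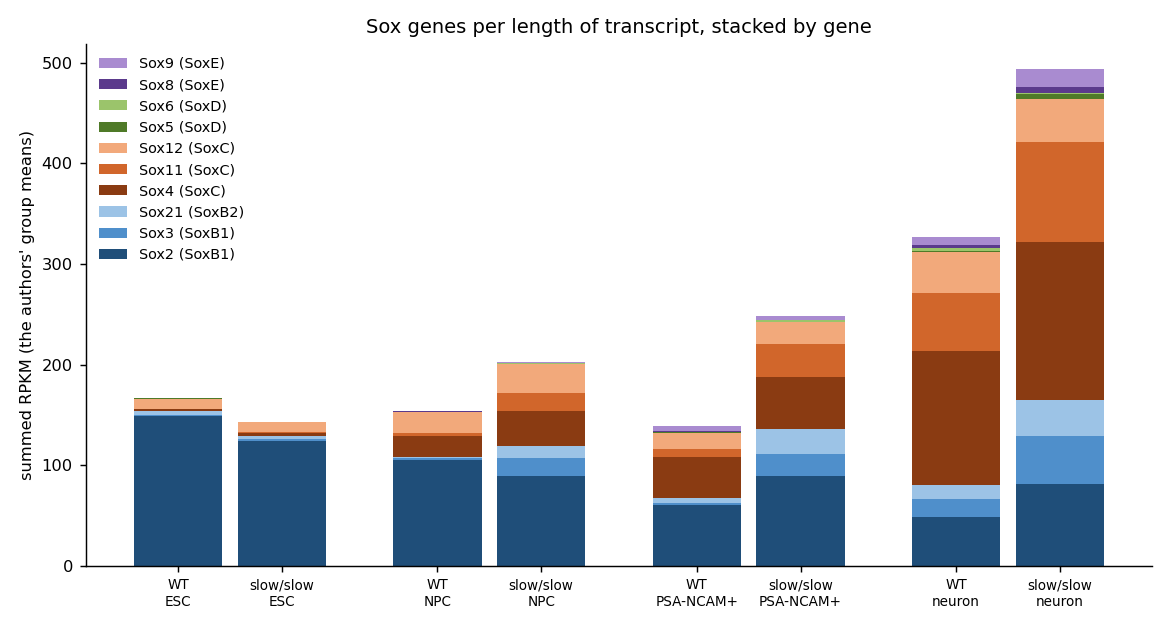
Bars stack the authors' mean RPKM of the 10 Sox genes for each stage and genotype, with 1 colour per gene and no error bars because the values are group means as deposited. The Sox2 share shrinks from 89.6% to 14.9% in WT cells, while the SoxC genes Sox4, Sox11 and Sox12 come to fill most of the bar in neurons.

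Over the 24 libraries the profiles of the members, as log2 CPM, were most alike for Sox4 and Sox11 (Pearson r 0.97) and for Sox4 and Sox9 (r 0.95), and Sox2 ran against every other member (r from -0.86 with Sox4 to -0.38 with Sox21). These values describe libraries that share stages and depth and carry no test. Among all tested genes the profiles nearest to Sox2 were those of 4930420K17Rik (r 0.963), Cryz (0.961) and Ash2l (0.948). Hoxa2 (0.981) and Creb1 (0.974) were among the 3 nearest to Sox3, and Sox21 was nearest to Gm5607 (0.936), Top1 (0.927) and Ikzf5 (0.924). Gm7120 (0.986) and Fndc4 (0.985) were among the 3 nearest to Sox11. Sox4 was nearest to Dbn1 (0.993), Parp8 (0.989) and Armcx3 (0.989), and Sox12 to Pak1 (0.985), Ypel1 (0.98) and Jph4 (0.979). Sox5 was nearest to Nr2f1 (0.982), Mecom (0.981) and St18 (0.975), and Sox6 to Dok5 (0.983), Sdk2 (0.98) and Rnf217 (0.974). Sox8 was nearest to Clip2 (0.978), Plekha6 (0.973) and Tbc1d30 (0.971), and Sox9 to Ddr1 (0.993), Reep3 (0.986) and Gria3 (0.982).

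Among the other Sox genes, 8 were tested, and all 8 were higher in slow/slow neurons (median log2 difference 1.82), where 23.4% of all genes were. At the earlier stages they went both ways, with 1 higher and 1 lower in ESCs, 3 and 2 in NPCs and 3 and 1 in PSA-NCAM+ cells, and medians of -0.26, 0.10 and -0.23. Sox14, the other SoxB2 gene, had 0.0416, 0.0302 and 0.015 CPM in WT NPCs (1 or 2 counts) against 0.285, 0.501 and 0.567 CPM in slow/slow NPCs (21 to 23 counts, FDR = 2.94e-05). Sox13, the remaining SoxD gene, was higher in slow/slow cells at every stage, by between 0.64 (ESCs) and 1.78 (PSA-NCAM+ cells) on the log2 scale. Sox10, the SoxE factor of neural crest and oligodendrocytes, was at 0.706, 1.20 and 0.895 CPM in WT neurons and 7.88, 6.11 and 7.21 CPM in slow/slow neurons, a log2 difference of 2.92 (FDR = 2.33e-06), while the slow/slow level was the lower one at the ESC (-1.70, FDR = 0.00877) and NPC stages (-0.97, FDR = 0.0259). The SoxF genes of endoderm and endothelium were higher in slow/slow neurons, Sox18 by 3.44, Sox7 by 2.34 and Sox17 by 1.05. Sox15, a gene of pluripotent cells, was lower in slow/slow NPCs, at 3.12, 2.82 and 2.56 CPM against 21.8, 21.0 and 19.8 CPM (log2 difference -2.87), and in PSA-NCAM+ cells (-2.58, and -3.78 without the slow/slow library 1), and higher in neurons (1.87). Without both libraries numbered 1, Sox10, Sox7 and Sox30 were also called lower in slow/slow PSA-NCAM+ cells, Sox10 moving from -0.19 to -1.11 (FDR = 0.000352). Sox30 was at 0.592 CPM or less throughout and passed the threshold only in neurons (1.28, FDR = 0.033), where its libraries overlapped. Sox1 was not analysed here, and Sry had no counts.

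The genes that Sox factors act with were summarised from lists chosen for their known roles, but with earlier results of these data known. The counts below are therefore descriptions. Of 15 progenitor and Notch pathway genes, 6 were higher and none lower in slow/slow ESCs, 11 higher and 1 lower in NPCs, and 12 and then 9 higher with none lower among PSA-NCAM+ cells and neurons. Pax6, a progenitor factor of eye and cortex, was 4.30 ± 0.297 CPM (SD over 3 libraries) in WT against 40.9 ± 3.96 CPM in slow/slow NPCs, and 12.3 ± 1.14 and 80.8 ± 5.60 CPM in neurons. Of 18 proneural and early neuronal genes, 15 were higher and 1 lower in slow/slow NPCs and 16 and 1 in PSA-NCAM+ cells, with median log2 differences of 2.39 and 2.18. In neurons 9 of them were higher and 2 lower, led by the proneural genes Neurog1 (4.85, from 1.29 ± 0.329 to 37.5 ± 7.69 CPM) and Neurog2 (4.02, from 2.97 ± 0.906 to 48.3 ± 7.72 CPM). These shares stood beside the 23.4% to 29.3% of all genes that were higher from NPCs to neurons.

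The pluripotency and POU partners of Sox2 split. Of 14 tested, 4 were higher and 8 lower in slow/slow NPCs, where Pou3f2, a neural POU factor, had 1.45 ± 0.914 CPM against 0.0698 ± 0.0306 CPM in WT and Esrrb, a naive pluripotency factor, had 93.1 ± 10.7 against 478 ± 26.1 CPM. In PSA-NCAM+ cells 4 were higher and 7 lower, in ESCs 4 and 1, and in neurons 8 and 2. Of all genes, 18.5% were higher and 21.9% lower in ESCs, and 23.4% and 28.4% in neurons. Of 15 glial genes, none was higher and 2 were lower in slow/slow ESCs, 6 and 5 were so in NPCs, 4 and 2 at the PSA-NCAM+ stage, and 4 and 8 in neurons. Among all genes, 29.3% were higher and 27.4% lower in NPCs, and 28.6% and 28.1% in PSA-NCAM+ cells. With all libraries, the glial counts at these middle stages were near or below those shares, apart from the 6 higher in NPCs. Without the slow/slow library numbered 1, Mbp, Mog, Cspg4 and Nfia were also called lower in slow/slow PSA-NCAM+ cells. The log2 difference of Mbp was then -1.23 (FDR = 9.21e-05). Gfap was also called higher in that fit (0.94, FDR = 0.00987). The count of lower glial genes at the PSA-NCAM+ stage thus depended on this library. The oligodendrocyte lineage factors Olig1 (38.4 ± 7.18 against 0.218 ± 0.0957 CPM) and Olig2 (22.8 ± 4.17 against 0.883 ± 0.187 CPM) and the astrocyte filament gene Gfap (1.57 ± 0.509 against 0.139 ± 0.0426 CPM) were lower in slow/slow neurons, the stage at which Sox8 and Sox9 were higher. The 5 tested astrocyte markers and 7 oligodendrocyte lineage markers had 1 and 3 genes higher and 3 and 2 genes lower there, and their summed levels were 135 to 159 CPM in slow/slow against 235 to 251 CPM in WT neurons for the first list and 49.9 to 74.4 against 76.5 to 97 CPM for the second.

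Of 12 neural plate border and crest genes, 3 were higher and 1 lower in slow/slow ESCs, 7 and 4 in NPCs, 5 and 3 at the PSA-NCAM+ stage, and 6 and 1 in neurons. Of all genes, 18.5% were higher and 21.9% lower in ESCs, 29.3% and 27.4% in NPCs, 28.6% and 28.1% at the PSA-NCAM+ stage, then 23.4% and 28.4% in neurons, so that the ESC counts and the lower ones in NPCs were close to the background. The largest differences in neurons were those of Pax7 (1.10 ± 0.229 against 34.9 ± 4.59 CPM) and Pax3 (4.15 ± 0.612 against 81.2 ± 4.48 CPM), factors of the dorsal neural tube and crest. Of 12 cartilage matrix genes known as targets of Sox9 with Sox5 and Sox6, 1 was higher and 7 lower in slow/slow ESCs, 2 and 8 in NPCs, 2 and 5 at the PSA-NCAM+ stage, and 4 and 1 in neurons, to be read against the same shares. Without the slow/slow library numbered 1, Col9a2 was also called lower in slow/slow PSA-NCAM+ cells (log2 difference -1.73, FDR = 4.67e-09). Col2a1, the main collagen of cartilage, had 68.5 ± 11.5 CPM in WT against 363 ± 45.5 CPM in slow/slow PSA-NCAM+ cells, and Col9a2 at 66.8 ± 3.92 and 10.3 ± 1.46 CPM in NPCs. In neurons, where Sox9 and the SoxF genes were higher in slow/slow cells, 5 of 7 fibroblast and smooth muscle markers were higher and 2 lower, with sums of 609 to 646 CPM against 348 to 471 CPM in WT, and 3 of the 4 tested neural crest markers, Sox10 among the list, were higher, with sums of 241 to 258 against 172 to 201 CPM. Of 8 endoderm markers, Sox7 and Sox17 among the list, 6 were higher and 1 lower there. Their sums overlapped, at 65.4 to 94.1 CPM in slow/slow and 62.8 to 74.7 CPM in WT neurons. Mesoderm markers went the other way, with 1 of 7 higher and 6 lower, and sums of 29 to 35.4 against 97.1 to 119 CPM. The part of such cells in the Sox values was not tested.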

How the data were processed

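Per the study's methods and the labels, poly(A)+ libraries were made with a stranded kit, and the authors ran vast-tools on reads mapped to mm9. The deposited files hold unnormalized counts per gene and sample, RPKM values that are means over the replicates of a group, and percent spliced in values with quality scores and corrected inclusion and exclusion reads. Their own fold change and FDR columns were not used, nor was their table of selected splicing events. Whether counting used the strand is not given in the sources used here, so values of Sox2 (within Sox2ot), Sox21, Sox4, Sox5, Sox6 and Sox8, which overlap non-coding genes of GENCODE M21, are uncertain to that extent. From the counts, all 16627 genes that passed filterByExpr were fitted over the 24 libraries with edgeR 4.0.16 (TMM scaling, quasi-likelihood test, 16 residual degrees of freedom, Benjamini-Hochberg adjustment over all genes, threshold 0.05). CPM are TMM-scaled, and the standard error of a log2 change is its size divided by the square root of F. Alternatives were RLE and upper-quartile scaling, no filter, DESeq2 1.42.0, a replicate block, fits of the compared groups alone and leaving out libraries (for genes other than the members, only the PSA-NCAM+ libraries numbered 1, chosen after seeing the data). Exons were fitted from the deposited reads as beta posteriors pooled over replicates, with limma 3.58.1 as the alternative. The scripts were tested on simulated data. Same-numbered libraries of the 2 genotypes deviated together only in PSA-NCAM+ cells (r of 0.54, 0.455 and 0.401 across genes). Deviations were taken from the mean of 3 libraries, so outlying libraries numbered 1 also move the values of numbers 2 and 3. These values therefore cannot tell a shared outlier from a pairing of libraries by number. Promoter windows came from RefSeq (GRCm38.p6). All members and all other Sox genes are named, up to 3 called genes per list and stage, and the 3 genes with the most similar profile to each member, of which some are not reported here. The members and lists were chosen with earlier results of these data known. Values with fewer reads are less precise, which limits Sox5, Sox6, Sox8, Sox9 and Sox11 in ESCs and Sox5 in WT NPCs.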

Additional observations from a re-analysis of the deposited data

Results flagged for a closer look

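Results of the 10 Sox genes were looked at again where the slow/slow against WT difference changed between 2 stages by edgeR's test of that change (FDR under 0.05). Between ESCs and NPCs the log2 difference rose for Sox21 by 3.73, for Sox6 by 3.43, for Sox5 by 3.37, for Sox3 by 1.99 and for Sox12 by 0.50. The Sox21 and Sox5 changes each joined an uncalled value below 0 in ESCs to one above 0 in NPCs, and Sox6 went from a call of lower to a call of higher. Slow/slow ESC libraries held only 4 to 6 counts of Sox5 and 5 or 6 of Sox6. The Sox12 call was lost in 4 of the 12 fits that left out 1 library.

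Between NPCs and PSA-NCAM+ cells Sox2 alone of the members passed, with a rise of 0.87, beside 14.6% of all genes. Between NPCs and neurons all 10 passed, beside 55.1% of all genes. The change in the log2 difference was -2.25 for Sox6, -2.14 for Sox3, -2.0 for Sox21, -1.96 for Sox11, -0.88 for Sox5, -0.67 for Sox4 and -0.60 for Sox12. The difference rose by 1.51 for Sox8, by 1.05 for Sox9 and by 0.80 for Sox2. Of these, the calls of Sox5 (FDR = 0.0417) and Sox9 (FDR = 0.0248) were lost in 10 and 5 of the 12 fits that left out 1 library.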

How the results depend on the processing

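Against WT, slow/slow cells had 5 Sox genes called as ESCs, 8 as NPCs, 9 as PSA-NCAM+ cells and 8 as neurons, and leaving out 1 library gave 4 to 5, 7 to 8, 9 and 7 to 8. Over all settings the counts were 4 to 6, 7 to 9, 6 to 9 and 7 to 9, the 6 in PSA-NCAM+ cells with only that stage in the fit, where Sox4, Sox12 and Sox8 were lost. The main FDRs of PSA-NCAM+ cells rest on a spread per gene shared by all 24 libraries, although this stage had the least alike libraries. For the members still called there, the highest FDR over the settings was 0.0261 for Sox2, 0.0125 for Sox3, 0.0339 for Sox21, 0.00412 for Sox11, 0.0113 for Sox5 and 0.0446 for Sox6. A replicate block (the library number as a covariate) gave 5, 8, 9 and 8 and changed no call of a member in any comparison. That block was common to all stages, whereas same-numbered libraries deviated together only in PSA-NCAM+ cells, so it was not specific to that shared deviation. With only the groups compared in the fit, PSA-NCAM+ cells against NPCs in slow/slow cells went from 7 calls to 4. The change of the genotype effect from NPCs to PSA-NCAM+ cells had 1 call, 1 to 2 without 1 library and 3 without both libraries numbered 1. Upper-quartile scaling moved the median of all genes by 0.14 for the genotypes in neurons and by -0.273 for WT neurons against NPCs (log2).

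Every value that changed sign was uncalled to begin with, and the cause was not tested. Of the genotype differences, Sox9 in PSA-NCAM+ cells was -0.0435 with upper-quartile scaling, -0.0899 without both libraries 1 and -0.387 to 0.325 without 1 library. Sox12 in neurons was 0.0713 with upper-quartile scaling and 0.0024 with only neurons in the fit, and in ESCs lay between -0.0242 and 0.152 without 1 library. From NPCs to PSA-NCAM+ cells, Sox3 lay between -0.268 and 0.211 in WT cells without 1 library (0.205 without both libraries 1) and between -0.0605 and 0.815 in slow/slow cells, and Sox2 in slow/slow cells was -0.0147 with upper-quartile scaling. The change of the genotype effect from ESCs to NPCs was -0.0261 for Sox2 with only those groups. From NPCs to PSA-NCAM+ cells that change, without 1 library, lay between -0.143 and 0.1399 for Sox12, -0.506 and 0.231 for Sox8, -0.543 and 0.173 for Sox9, and -0.0153 and 0.872 for Sox3. It was -0.0102 for Sox12 with upper-quartile scaling, and without both libraries 1 it was -0.0815 for Sox12, 0.143 for Sox8, 0.305 for Sox21 and -0.11 for Sox6.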
